A study of Homo sapiens with 18 samples.

Results

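SP5 is a zinc-finger transcription factor of the SP/KLF family whose gene is switched on by WNT signaling. Members of this family bind GC-rich DNA, above all GC boxes in promoters, and related GA and GT boxes. In human embryonic stem cells (hESCs), WNT ligands such as Wnt3a stabilize β-catenin, which acts with TCF/LEF factors at target genes and starts differentiation towards mesendoderm, the common precursor of mesoderm and endoderm.

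Genome-wide occupancy of SP5 was measured by ChIP-Seq, and the peak calls were deposited as 2 lists. One is labelled as cells without Wnt3a and the other as cells given 1 nM Wnt3a for 24 h, both of line H1, an established hESC line. The list headers, however, name the same ChIP library in both cases, a pulldown of SP5 out of cells given Wnt3a, and its file name refers to H9, a different hESC line. What differs is the control library, from buffer-treated cells in the first list and from Wnt3a-treated cells in the second. The peaks described here are the 268 of the 542 peaks in the first list that share no base with any of the 540 peaks of the second, and they are called buffer-only peaks. The other 274 peaks of the first list are in both lists, and 266 peaks are in the second list alone, so that both lists hold 1082 entries in all. Gene expression came from RNA-Seq of line H1 before and after 12, 24 and 48 h with Wnt3a at 1 nM. There is 1 library per time in each of 4 series: a first wild-type (WT) series, a second one called WT Rep. 2, and dZF1 and dZF2. The last are clones in which CRISPR-Cas9 deleted the sequence for the zinc fingers from both SP5 alleles, each a single clone. WT Rep. 2 repeats the WT time course, but its values were deposited for fewer genes and on another scale, and the clones are different mutants. Each series thus has a single library per time and the ChIP a single library, so no test is made and all differences below are descriptions.

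The buffer-only peaks were chosen by the peak calls themselves, so their tags, scores and fold enrichments describe the choice and support nothing. The ChIP library held 18641194 tags, the buffer-treated control 19031237 and the Wnt3a-treated control 20618344. Peaks were called by MACS at a p-value cutoff of 1e-05, which is a score of 50 on its scale of -10 times the log10 of p. All 274 peaks in both lists have the same start, end, summit and tags in each list, so no peak is shared in part. Among the buffer-only peaks close to the second list, those beside FSCN1 and SP5 lie 1217 and 1641 bases from a peak of that list, with scores of 88.87 and 72.9. Of the peaks in both lists, the lowest score is 50.01 against the buffer-treated control and 50.06 against the Wnt3a-treated control. The lowest score of a buffer-only peak is 50.02, so the groups meet at the cutoff. Stem cell markers in the first WT series at 0 h were 294.6 RPKM (reads normalised to transcript length and library size) for POU5F1, 238.3 for SOX2, 1014.1 for LIN28A, 393.8 for DNMT3B and 119.2 for SALL4, whereas NANOG was at 3.3. Of the markers for other cell types, fibroblast COL1A1 was at 4.2 RPKM, VIM at 83.2 and THY1 at 195.7, and the trophoblast genes CGA, GATA3 and KRT7 are not listed in the table used here.

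The DNA under 9 of these peaks is shown because it carries the features described below: the strongest peak and that with the highest fold enrichment, then peaks near genes of the WNT and NODAL pathways, of mesendoderm and of pluripotency, and 2 peaks whose nearby genes were at least 2-fold higher with Wnt3a in the first WT series. Each stretch spans 201 bases around the summit on the forward strand of GRCh37 (hg19). Introns and starts, here and below, follow the outermost ends of each gene, and other transcripts can start nearer a summit. Capitals mark a GC box (GGGCGG) or a GA box (GGGAGG) or a GT box (GGGTGG) on either strand. The windows are chr22:29702177-29702377 upstream of GAS2L1, chr15:88369611-88369811 for the peak nearest NTRK3, chr2:171568542-171568742 upstream of SP5, chr10:72200112-72200312 in an intron of NODAL, chr14:95236687-95236887 upstream of GSC, chr1:156676147-156676347 upstream of CRABP2, chr17:63547448-63547648 in an intron of AXIN2, chr6:31139675-31139875 in an intron of POU5F1 and chr20:47442605-47442805 in an intron of PREX1.
GAS2L1: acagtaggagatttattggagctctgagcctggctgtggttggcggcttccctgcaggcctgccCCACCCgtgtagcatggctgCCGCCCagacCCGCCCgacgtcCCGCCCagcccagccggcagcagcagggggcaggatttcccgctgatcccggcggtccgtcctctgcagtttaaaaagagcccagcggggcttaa
NTRK3: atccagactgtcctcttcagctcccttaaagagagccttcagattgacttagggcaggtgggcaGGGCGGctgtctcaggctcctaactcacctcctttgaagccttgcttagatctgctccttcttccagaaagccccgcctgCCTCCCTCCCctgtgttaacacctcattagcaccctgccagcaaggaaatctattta
SP5: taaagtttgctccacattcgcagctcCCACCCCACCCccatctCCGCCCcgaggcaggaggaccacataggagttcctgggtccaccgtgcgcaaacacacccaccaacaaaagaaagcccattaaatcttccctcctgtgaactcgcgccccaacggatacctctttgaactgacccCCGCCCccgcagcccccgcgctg
NODAL: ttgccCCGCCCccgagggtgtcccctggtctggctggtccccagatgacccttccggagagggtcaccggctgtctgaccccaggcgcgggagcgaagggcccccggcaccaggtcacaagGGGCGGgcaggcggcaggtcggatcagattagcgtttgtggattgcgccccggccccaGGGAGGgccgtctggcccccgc
GSC: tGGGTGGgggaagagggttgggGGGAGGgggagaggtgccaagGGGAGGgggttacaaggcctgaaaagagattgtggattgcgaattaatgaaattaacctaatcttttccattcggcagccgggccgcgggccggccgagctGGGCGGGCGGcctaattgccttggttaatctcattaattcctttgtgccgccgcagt
CRABP2: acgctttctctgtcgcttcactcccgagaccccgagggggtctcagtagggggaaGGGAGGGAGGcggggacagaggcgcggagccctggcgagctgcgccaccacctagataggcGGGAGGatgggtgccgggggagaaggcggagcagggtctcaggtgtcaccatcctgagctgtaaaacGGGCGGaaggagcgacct
AXIN2: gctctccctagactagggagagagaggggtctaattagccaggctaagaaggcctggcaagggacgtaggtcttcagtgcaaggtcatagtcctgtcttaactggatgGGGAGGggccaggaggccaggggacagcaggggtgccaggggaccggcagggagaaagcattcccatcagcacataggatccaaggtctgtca
POU5F1: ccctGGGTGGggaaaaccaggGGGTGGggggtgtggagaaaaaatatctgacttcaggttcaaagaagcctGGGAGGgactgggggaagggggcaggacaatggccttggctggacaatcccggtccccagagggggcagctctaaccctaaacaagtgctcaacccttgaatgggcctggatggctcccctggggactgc
PREX1: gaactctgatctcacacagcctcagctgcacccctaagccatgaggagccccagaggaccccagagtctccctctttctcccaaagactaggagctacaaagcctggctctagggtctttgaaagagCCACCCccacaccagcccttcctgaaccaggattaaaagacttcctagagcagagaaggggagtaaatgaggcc
The GAS2L1 window holds 3 GC boxes and 1 GT box, and that of SP5 2 GC boxes and 2 GT boxes. NODAL has 2 GC boxes and 1 GA box, GSC 2 GC boxes, 2 GA boxes and 1 GT box, and CRABP2 1 GC box and 3 GA boxes. The NTRK3 window has 1 GC box and 2 GA boxes. Those of AXIN2, POU5F1 and PREX1 lack a GC box: AXIN2 has 1 GA box, POU5F1 1 GA box and 2 GT boxes, and PREX1 1 GT box.

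Most buffer-only peaks are weak. They span 407 to 4470 bases with a median of 708.5, and hold 13 to 141 tags with a median of 19. The median score is 55.33, and 188 of the 268 peaks (70.1%) score below 60, against 98 of the 274 peaks in both lists (35.8%). Peaks called only against the Wnt3a-treated control are as close to the cutoff, with a median score of 55.39 and 182 of 266 (68.4%) below 60. Fold enrichment over the control runs from 3.83 to 13.52 with a median of 6.885, beside medians of 7.565 for peaks in both lists and 6.515 for those with the Wnt3a-treated control only. The false discovery rate of MACS, which sets peaks found after swapping ChIP and control against those found in the right order, has a median of 71.49% and is above 70% for 172 peaks. The rate differs by control: peaks in both lists have a median of 60.74% against the buffer-treated control and 29.2% against the Wnt3a-treated control. Peaks with the Wnt3a-treated control only have a median of 45.52%, and 0 of 266 are above 70%, against 90 of the 274 in both lists with the buffer-treated control. Only 1 buffer-only peak has a rate of at most 5%, against 34 of the peaks in both lists and 6 with the Wnt3a-treated control only. Across the 268 peaks, tags followed the length of the peak (Spearman's rank correlation 0.92) more closely than the score (0.58). These are descriptions over peaks of 1 library, in which longer peaks collect more tags by construction.

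**Figure D1:**
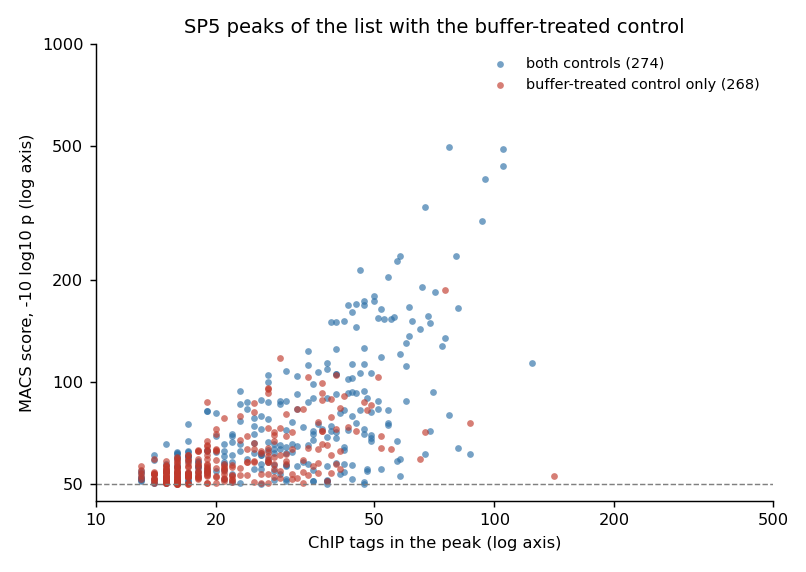
ChIP tags in each peak (log axis) against its MACS score (log axis) for the first list, with the 268 buffer-only peaks in red, the 274 peaks in both lists in blue and the cutoff of 50 as a dashed line. Buffer-only peaks crowd near the cutoff, and 5 of them reach a score of 100, against 61 of the peaks in both lists.

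The strongest buffer-only peak lies upstream of GAS2L1, which encodes a linker of actin and microtubules. It spans chr22:29701148-29703280 with 75 tags, a score of 187.28, an 11.67-fold enrichment and a false discovery rate of 0%, and its summit is 331 bases before the start. No other buffer-only peak exceeded a score of 118.11. That one, chr15:88369307-88370063, has 29 tags and the highest fold enrichment, 13.52-fold, and lies 430311 bases from the nearest start, that of NTRK3, a neurotrophin receptor. The 3 next by score are in introns or exons: chr16:85267887-85269005 in an intron of GSE1 (score 105.19), chr7:129093793-129094816 in a coding exon of STRIP2 (103.66) and chr1:204896477-204898162 in an intron of NFASC, a neuronal adhesion protein (103.28). Peaks with scores of 92.73 to 99.22 lie nearest SPACA6, TPD52, UBL3 and MYT1. The MYT1 peak, with its summit 148 bases inside this neural zinc-finger gene, is the only one of these 4 within 2000 bases of a start.

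Many tags did not go with a high score. The most tags, 141, are in a peak of 4470 bases on the unplaced contig gl000220, with a score of 52.76 and a 3.94-fold enrichment. CRABP2, which encodes a retinoic acid carrier, follows with 87 tags at chr1:156675004-156676744 and a score of 75.95. BPIFB2 has 67 tags with the lowest fold of any buffer-only peak, 3.83, and AMOTL2, a regulator of the Hippo pathway, has 65 tags with a score of 59.34. At the other end, 4 peaks score 50.02 to 50.12 with 16 or 17 tags. They lie nearest SLC25A52, ERCC6L2, C7orf33 and PXYLP1, of which 3 are more than 50000 bases from the start and the PXYLP1 peak is 30361 bases into the gene.

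By position, 47 of the 268 summits (17.5%, 95% Wilson interval 13.5% to 22.5%) lie within 2000 bases of the start of a protein-coding gene, 18 of them upstream and 29 downstream. Introns hold 99 summits (36.9%) and exons another 10 (3.73%), and the remaining 112 (41.8%) are intergenic. For peaks in both lists the share near a start is 26.3% (21.4% to 31.8%), and for peaks called only against the Wnt3a-treated control it is 27.4% (22.4% to 33.1%). The intervals overlap and cover counting error only. The median distance to the nearest start was 38693 bases for buffer-only peaks, 16838 for peaks in both lists and 32425 for those with the Wnt3a-treated control only. More than 100000 bases lay between summit and start for 81 buffer-only peaks (30.2%), against 54 of the peaks in both lists (19.7%). Summits in genes were not always in the nearest gene: 35 of the 139 buffer-only summits inside a gene lie closer to the start of another. The peak nearest KIFC3, for example, is in an intron of CNGB1, and that nearest VAMP5 is in an intron of VAMP8.

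In sequence, 136 of the 268 windows of 201 bases (50.7%, 44.8% to 56.7%) hold a GC box or a GA box on either strand. The flanks 2000 bases to either side hold one in 34.9% (31% to 39%) of 536 windows. The same motifs are in 69.7% (64% to 74.8%) of windows of peaks in both lists, in 56.4% (50.4% to 62.2%) of those called only against the Wnt3a-treated control, and in 65.8% of windows of the same length around all 20176 protein-coding starts. The GC box GGGCGG alone is in 66 windows (24.6%, 19.9% to 30.1%), against 5.22% (3.64% to 7.45%) of the flanks and 46.6% of start windows. The GA box GGGAGG is in 108 (40.3%), against 32.6% of flanks and 43.3% of start windows. The GT box GGGTGG is in 70 (26.1%), against 16.4% of flanks and 25.8% of start windows. Among the buffer-only peaks, 107 windows have none of the 3 motifs and 20 have at least 4 GC or GA boxes, such as the GSC, CRABP2 and ARHGEF10L peaks. Windows near a start more often hold a GC or GA box (39 of 47, 83.0%) than those farther away (97 of 221, 43.9%), and their median GC content is 65.7% against 46.8%. GC-rich DNA holds these motifs more often by its composition, and its part in the difference was not tested.

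Other motifs were rare. The TCF/LEF motif CTTTGAT is in 7 of the 268 windows (2.61%), the same share as in the flanks (14 of 536) and 1.20% of start windows, and its variant CTTTGAA is in 14 (5.22%), against 4.29% of flanks and 2.08% of start windows. The CCAAT box, CCAAT, is in 16.8% of the windows, 22.8% of flanks and 25.9% of start windows. The AP-1 motif TGACTCA, which read on the other strand is TGAGTCA, is in 8 windows (2.99%), 4.48% of flanks and 2.63% of start windows. The octamer ATGCAAAT, bound by POU factors, is in 3 windows (1.12%), 1.31% of flanks and 0.798% of start windows. Both strands were searched, and a match or its absence says only which letters the window holds.

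**Figure D2:**
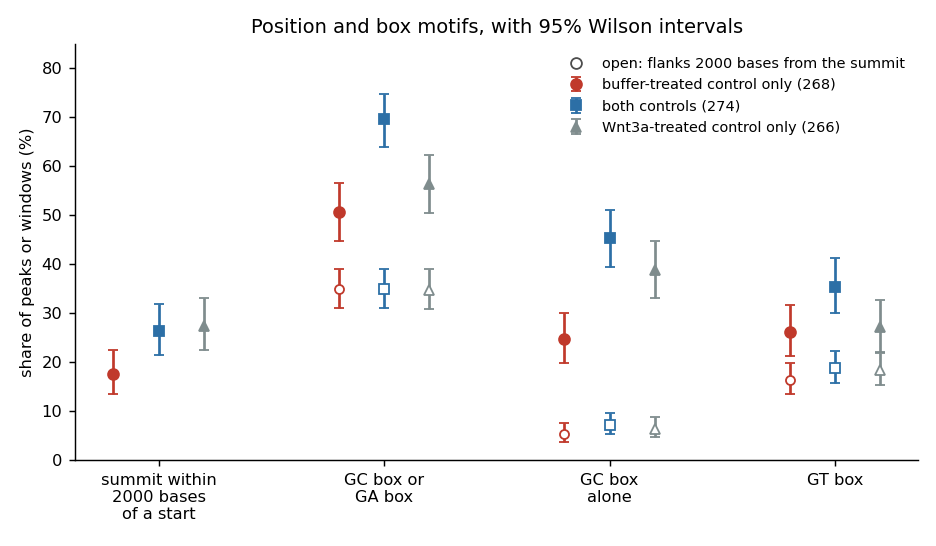
Share of peaks (filled) or of flanking windows (open) in percent, with 95% Wilson intervals, that lie near a start or hold each motif, for buffer-only peaks (red circles), peaks in both lists (blue squares) and peaks with the Wnt3a-treated control only (grey triangles). The GC box alone is in 24.6% of buffer-only peaks and 45.3% of peaks in both lists, while the flanks of both lie between 5.22% and 7.12%.

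Position and motifs also differed along the score, which was used to call the peaks. Of the 89 buffer-only peaks with the highest scores (58.87 to 187.28), 65.2% have a GC or GA box and 22.5% are near a start. The 89 in the middle have 51.7% and 21.3%. Among the 90 with the lowest scores (50.02 to 53.3), the shares are 35.6% and 8.89%, and the first is close to the 34.9% of the flanks. GC content goes the same way, with a median of 57.2%, 52.7% and 44.3% from the highest to the lowest scores.

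In all, 149 buffer-only peaks lie within 50000 bases of a start, and 147 genes are nearest to them. Of these nearby genes, 6 (4.08% of the 147, and 3.26% of the 184 genes near peaks in both lists) also lie near a peak of both lists. They are AXIN2, DACT2, LMX1B, PREX1, SP5 and TSKU. Over all 20176 protein-coding genes, 184 lie near a peak of both lists, and the overlap was not tested against this share. AMOTL2, FGFR2 and FSCN1 also lie near a peak called only against the Wnt3a-treated control. Of the 147 genes, 85 are in the RPKM table, which lists genes that reach at least 4 RPKM in 1 of the 4 libraries. Over these 85 genes the median at 0 h was 11.1 RPKM, beside 16.5 RPKM at 48 h with Wnt3a. It was 14.5 and 14.6 RPKM for genes near peaks in both lists, and 17.35 and 16.35 for those with the Wnt3a-treated control only. Gene by gene, the median log2 change of the 85 was only 0.13 (95% interval -0.07 to 0.38).

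At 12 h, 6 of the 85 nearby genes were at least 2-fold higher than at 0 h on the scale of RPKM plus 1, and 1 was lower, against 1.22% and 0.738% of all 10975 genes in the table. At 24 h, 11 were higher (12.9%, 7.38% to 21.7%) and 4 lower, against 2.62% and 1.36% of all genes. PLSCR3, whose values are uncertain as set out below, is the gene lower at 12 h and 1 of the 4 lower at 24 h. At 48 h, 15 were higher (17.6%, 11.0% to 27.1%) and 5 lower (5.88%, 2.54% to 13.0%), against 4.87% and 2.95% of all genes. Genes near peaks in both lists were higher at 48 h in 13.5% and lower in 8.11% of 111 genes, with intervals that overlap those of the buffer-only peaks. The nearby genes were grouped by distance to the outermost start as well, although 71 in place of 47 summits are within 2000 bases when all transcripts are used. Of the 33 with a summit within 2000 bases, 6 were higher and 0 lower at 48 h, and of the 52 with one at 2000 to 50000 bases, 9 were higher and 5 lower. The median log2 change at 48 h was 0.13 over the 85 genes (95% interval of the median -0.07 to 0.38), against 0.00 over all genes. Without the genes that also lie near another peak, 15 of 77 (19.5%) passed the 2-fold limit at 48 h, with 10 higher and 5 lower.

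**Figure D3:**
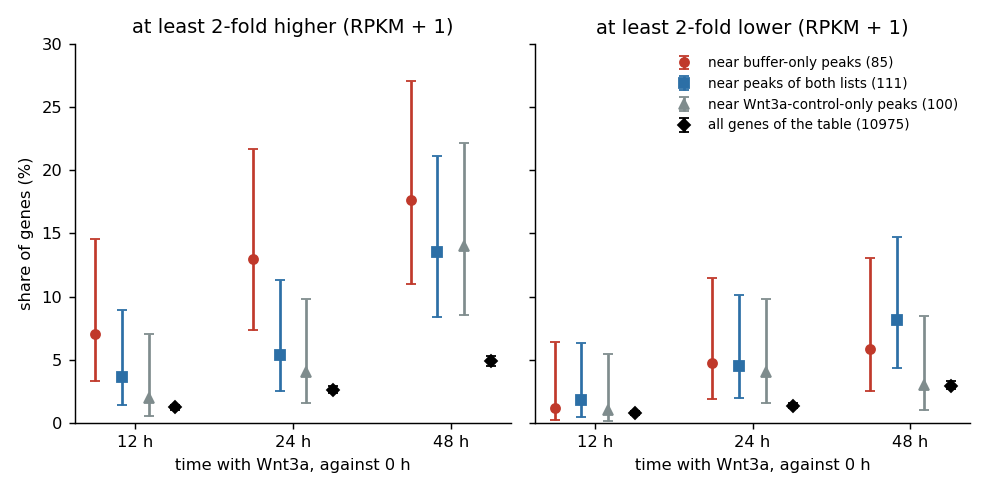
Share of genes in percent, with 95% Wilson intervals, whose RPKM plus 1 was at least 2-fold higher (left) or lower (right) than at 0 h in the first WT series, by time and by the peaks they lie near. At 48 h, 17.6% of the 85 genes near buffer-only peaks were higher, beside 4.87% of the 10975 genes of the table, and the intervals of the 3 peak groups overlap at each time.

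SP5 itself lies near a buffer-only peak, at chr2:171568150-171569135 with 40 tags and a score of 72.9. Its summit is 3205 bases upstream of the start, and the nearest peak of both lists is 1641 bases from it. SP5 is listed at 0 RPKM at 0 h and was at 49.8, 90.5 and 135.7 RPKM at 12, 24 and 48 h. Of the 27 genes in a list of WNT feedback genes and targets, 3 lie near a buffer-only peak: SP5, AXIN2 and AMOTL2. Over all 20176 protein-coding genes, 147 do, and no list count here or below was tested against this share. AXIN2, a scaffold of the complex that degrades β-catenin, was at 15.5, 24.4, 23.8 and 22.0 RPKM, a change below 2-fold at each time. Its peak, chr17:63547194-63548035, has 22 tags and a score of 56.13 and lies 10218 bases into the gene, 8008 bases from a peak of both lists. AMOTL2 was at 14.8, 21.9, 28.6 and 32.6 RPKM, a log2 change of 1.09 at 48 h. None of the 48 genes in a list of WNT ligands, receptors and transducers is near a buffer-only peak, and at the overall share a list of 48 can hold none. WLS, outside that list, encodes the carrier that WNT proteins need for secretion. Its level was 0.7, 4.6, 13.2 and 21.9 RPKM, a log2 change of 3.75 at 48 h, and the summit lies 116 bases from the start in an untranslated exon, with 18 tags and a score of 57.67.

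NODAL, a ligand of the TGF-β family that drives mesendoderm formation, was at 4.3 RPKM at 0 h and then 77.1, 159.2 and 56.9 at 12, 24 and 48 h. The buffer-only peak, chr10:72199798-72200769, has 43 tags, a score of 73.69 and a 7.94-fold enrichment. By the outermost ends of the gene it is in an intron, 7495 bases from the outermost start. GSC, a homeobox gene of the organizer and mesendoderm, was at 0.5, 7.3, 57.8 and 27.2 RPKM. Its peak, chr14:95236262-95237198, is 337 bases upstream, with 30 tags and a score of 61.45. Both genes were highest at 24 h, and at 48 h NODAL was below its level at 12 h and GSC above it. GSC was the only 1 of 17 mesendoderm genes listed here, and 0 of 12 definitive endoderm genes lay near a buffer-only peak. In a list of 43 genes of BMP, FGF and NODAL signaling, NODAL and FGFR2 did. FGFR2, an FGF receptor, was at 25.7, 19.9, 14.3 and 14.2 RPKM, a log2 change of -0.81 at 48 h, and its peak has 22 tags and a score of 51.63.

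**Figure D4:**
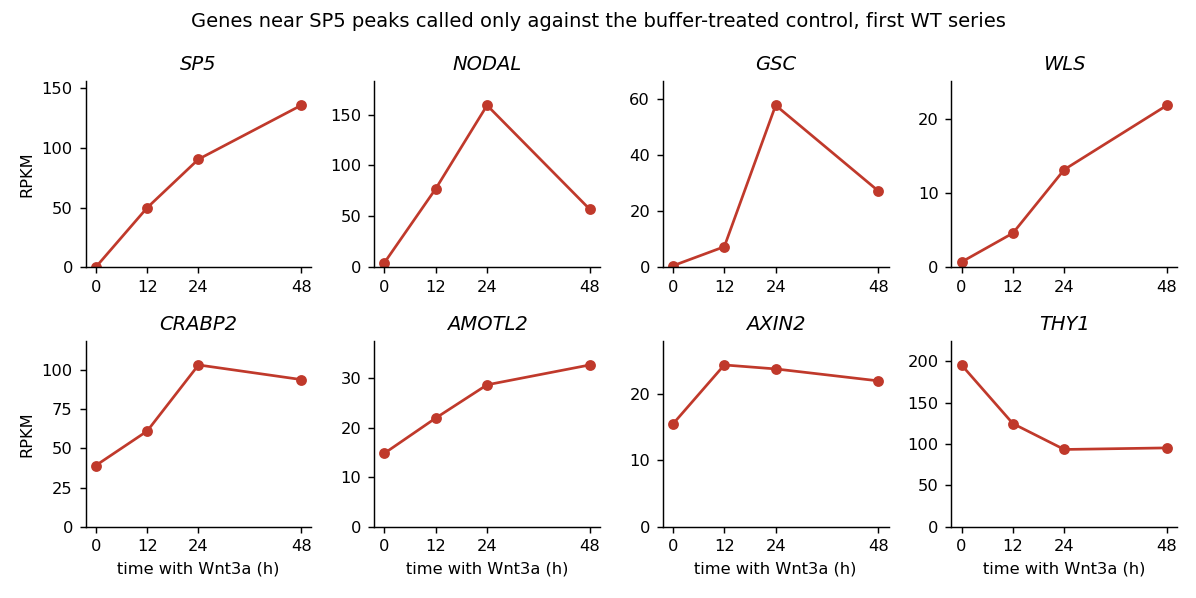
RPKM at 0, 12, 24 and 48 h of Wnt3a in the first WT series (1 library per time, separate linear axes) for 8 genes near buffer-only peaks. SP5 and WLS are highest at 48 h, with 135.7 and 21.9 RPKM, NODAL and GSC at 24 h, with 159.2 and 57.8 RPKM, and THY1 at 0 h, with 195.7 RPKM.

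Of 16 pluripotency genes, POU5F1 alone lies near a buffer-only peak, chr6:31139276-31140279, with 31 tags, a score of 53.5 and a 10.6-fold enrichment. The summit is in an intron by the outermost ends of the gene, 8733 bases from the outermost start. Its distance to the starts of shorter transcripts was not listed. It was at 294.6, 323.7, 300 and 243.1 RPKM. Of 54 homeobox genes, HOXB9 and LMX1B lie near one, and neither is in the RPKM table. GBX2, a homeobox gene of the early neural plate that is outside that list, was at 0.8, 5.1, 2.4 and 1.2 RPKM, at least 2-fold higher at 12 h only. Also outside it, LHX5, OTP and NKX2-2 have buffer-only peaks within 50000 bases, a pair of them for OTP, and are not in the RPKM table. None of the 18 genes in the neural list was nearby, and at the overall share a list of 18 can hold none. MYT1, described above as a neural gene with a peak near its start, is outside that list. In the SP/KLF family, SP5 was the only 1 of 26 genes near a buffer-only peak. All these list counts stand beside 147 of 20176 genes overall.

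CRABP2 has a pair of buffer-only peaks, 639 bases upstream and 12708 bases downstream of its start, the second with 39 tags and a score of 53.89. The gene was at 39.0, 60.9, 103.0 and 93.7 RPKM in the first WT series, a log2 change of 1.38 at 24 h, but WT Rep. 2 had 0.98, 0.79, 0.71 and 1 of its maximum and was thus lower at 24 h than at 0 h. PREX1, an exchange factor for the GTPase Rac, was at 4.1, 8.2, 9.6 and 13.4 RPKM, and FSCN1, which bundles actin filaments, at 242.6, 277.0, 341.8 and 504.8. Both were at least 2-fold higher at 48 h. GAS2L1 stayed just under this limit, with 4.9, 6.7, 9.5 and 10.2 RPKM and a log2 change of 0.92. Further genes at least 2-fold higher at 48 h were KIFC3, a kinesin motor (1.2 to 7.1 RPKM), the vesicle protein VAMP5 (2.0 to 13.2), the carboxypeptidase-like CPXM1 (11.3 to 25.7), TPD52 (5.4 to 12) and the sugar transporter SLC5A9 (1.1 to 4.6). NCR1 is listed at 0 RPKM at 0 and 12 h and was at 4.6 and 5.5 at 24 and 48 h. Genes below 4 RPKM at 0 h, such as NCR1, SLC5A9, GBX2 and DLEU7, are in the RPKM table only because a later library reached that level. Their rises thus follow in part from this filter, which holds for all genes of the table alike. FAM167A, with 1.6 RPKM at 0 h and 9.6 at 24 h, and PXYLP1, listed under its older name ACPL2 with 13.7 and 28.5, were at least 2-fold higher at 24 h only, and DLEU7, with 0.9 RPKM at 0 h and 4.6 at 12 h, at 12 h only.

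Nearby genes at least 2-fold lower were fewer. THY1, a cell-surface protein of fibroblasts and neurons that stem cells also carry, was the only 1 of 6 marker genes of other cell types with a peak nearby. It was at 195.7, 124.8, 93.5 and 95.4 RPKM, a log2 change of -1.03 at 48 h. The THY1 peak lies 8182 bases into the gene, with 49 tags, a score of 85.86 and a 4.52-fold enrichment. CUZD1 was at 6.8 RPKM at 0 h and 0.6 at 48 h, ANKRD34B at 6.4 and 0.1, MMP17, a membrane-bound metalloproteinase, at 12.7 and 5.0, and ARHGEF10L, a guanine nucleotide exchange factor, at 8.4 and 3.1. PLSCR3, a phospholipid scramblase, was at 11.1, 0.1, 0.0 and 13.2 RPKM. It overlaps the read-through gene TMEM256-PLSCR3 on the same strand. Whether reads were split between both genes was not tested, and the PLSCR3 values are uncertain.

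The SP5 mutant clones were examined for the 14 nearby genes in the table of the mutant experiment. It holds 497 genes, each relative to its highest RPKM in WT Rep. 2. The paper describes its mutant expression data as covering genes that changed significantly with Wnt3a. Neither the 14 nor the 497 genes are therefore a sample of all genes. The deletion removes only the zinc-finger sequence of SP5, so the RPKM of SP5 does not check the labels. SP5 was at 0.02, 0.02, 0.09 and 1 in WT Rep. 2. The clone dZF1 had 0.01, 0.23, 0.90 and 2.54, and dZF2 had 0.00, 0.62, 0.75 and 2.61. Both clones lay above WT Rep. 2 from 12 h on. At 24 h both clones were above WT Rep. 2 for 11 of the 14 genes, against 51.1% of the 497 genes. The corresponding numbers were 6 at 0 h (33% of all), 7 at 12 h (36.6%) and 7 at 48 h (44.7%). With 14 genes that were chosen in 2 steps, this difference from the background was not tested.

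NODAL at 24 h was at 0.32 in WT Rep. 2 and reached 1.46 in clone dZF1 and 3.06 in clone dZF2, and GSC at 0.10, 0.74 and 1.80. WLS was at 0.40, 1.10 and 1.26. At 48 h the clones were still above WT Rep. 2 for NODAL (1.43 and 1.64 against 1) and GSC (2.09 and 1.66 against 1), whereas they stood on either side of it for WLS (0.79 and 1.38). KIFC3 was at 0.50 in WT Rep. 2 at 24 h and at 0.86 and 1.28 in the clones, and PREX1 at 0.48 with 0.68 and 1.53. AMOTL2, AXIN2, FAM167A, PXYLP1 and THY1 were the others with both clones higher at 24 h. In AXIN2 the difference was small, 0.82 against 0.87 and 1.09.

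The 3 genes with both clones below WT Rep. 2 at 24 h were CRABP2, FGFR2 and ANKRD34B, against 29.2% of the 497 genes. CRABP2 was at 0.98, 0.79, 0.71 and 1 in WT Rep. 2. With 0.51, 0.67, 0.51 and 0.58 in dZF1 and 0.44, 0.45, 0.41 and 0.47 in dZF2, the clones lay below it at every time including 0 h. FGFR2 was likewise lower in both clones at all 4 times, with 0.52 in WT Rep. 2 and 0.27 in each clone at 48 h.

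The WT series themselves differed in time course. Of the 14 genes, 11 were highest at 48 h in WT Rep. 2 but 5 in the first WT series. This count and those below were not made over the 497 genes of the mutant experiment. Whether they are particular to these 14 genes was not tested. NODAL at 24 h was 2.80 times its level at 48 h in the first WT series but 0.32 times in WT Rep. 2. In clone dZF1 it was 1.02 times, and in clone dZF2 1.87 times. For GSC the same ratio was 2.13, 0.10, 0.354 and 1.08. Over the 14 genes, both clones had a higher ratio of 24 to 48 h than WT Rep. 2 in 12, but a higher one than the first WT series in 4. The direction against 0 h was opposite in both WT series for 6 of the 14 genes at 12 h, 6 at 24 h and 2 at 48 h. Those at 24 h were AMOTL2, ANKRD34B, AXIN2, CRABP2, FGFR2 and PREX1. CRABP2, for example, was at 39.0 and 103.0 RPKM at 0 and 24 h in the first WT series and at 0.98 and 0.71 of its maximum in WT Rep. 2, and PREX1 at 4.1 and 9.6 RPKM against 0.53 and 0.48. At 48 h they were AXIN2, with 0.87 and 0.76 in WT Rep. 2, and THY1, with 0.68 and 1. The clones and WT Rep. 2 share a scale, whereas the first WT series is in a table of its own, so its levels are not set against theirs.

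**Figure D5:**
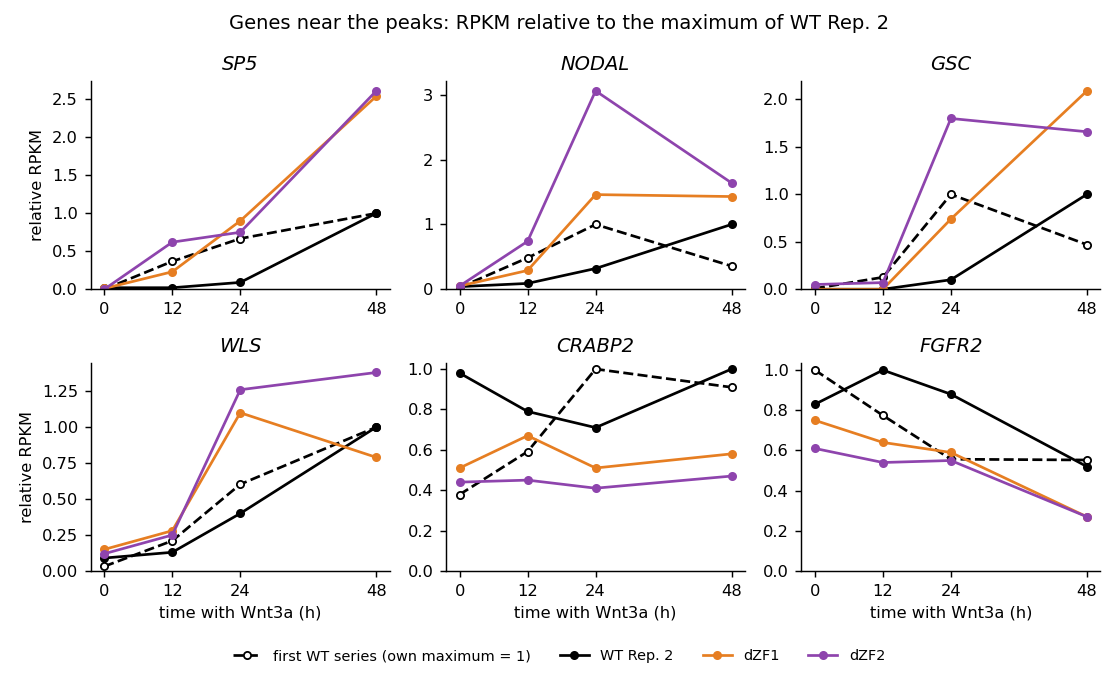
Relative RPKM over time of Wnt3a for 6 genes near buffer-only peaks, with WT Rep. 2 (solid black), dZF1 (orange) and dZF2 (purple) as a ratio to the WT Rep. 2 maximum and the first WT series (dashed) as a fraction of its own maximum; 1 library per point. For NODAL at 24 h WT Rep. 2 is at 0.32 and the clones at 1.46 and 3.06, while the first WT series is at its maximum of 1.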

How the data were processed

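SP5 ChIP-Seq and RNA-Seq of hESCs were analysed from deposited tables. For peaks called with MACS 1.4.2, the authors deposited tag counts, a score (the log10 of p multiplied by -10), a ratio giving fold enrichment and the false discovery rate as a percent. Reads were mapped to hg19, by Bowtie 2 in the paper and Bowtie 0.12.7 in the submitters' processing notes. The authors deposited RPKM from TopHat and Cuffdiff, rounded to 1 decimal, and for the mutant experiment each value as a fraction of, or ratio to, the highest RPKM of WT Rep. 2. RNA depth is unknown, so RPKM carry no interval.

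Summits were compared with 1 start per protein-coding gene of GENCODE release 44 (GRCh37), the outermost one. Motifs were searched within 100 bases. Changes used RPKM with a pseudocount of 1, for nearest genes within 50000 bases. Older symbols were matched through RefSeq synonyms for 5 of the 85 nearby genes. Repeats were measured as 31-mers that occur more than once in the genome, and 2 buffer-only peaks had over 50% of the window repeated.

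Peaks, gene lists and comparisons were chosen with earlier results of these data known. Named genes are those nearest the 10 highest scores, the 5 most tags, a false discovery rate of at most 5% and the 3 lowest scores, and nearby genes that changed at least 2-fold, are in the mutant table or belong to a list. CNGB1, VAMP8, TMEM256-PLSCR3, DACT2, TSKU, LHX5, OTP, NKX2-2, ICE2 and SHCBP1 were named after their values were seen. Python 3.11.15, numpy 2.4.6, pandas 2.3.3, scipy 1.17.1, pysam 0.24.0, matplotlib 3.10.9 and samtools 1.23.1 were used, and the steps were tested on simulated data. Tables that repeat the RPKM as fractions were not used here, and 1 peak named by the rule is not reported here.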

Additional observations from a re-analysis of the deposited data

How the results depend on the processing

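The number of buffer-only peaks was 267 to 268 when the separation of the lists was set by summits, by 50% of the length or by a gap of 500 bases. It was 80 with a score of at least 60 and 5 with a score of at least 100. The share near a start was 13.1% within 1000 bases and 26.5% with the starts of all transcripts. It kept within the interval given above in the other settings, including the removal of repeated windows and a false discovery rate of at most 50%, both chosen after seeing the data. The share with a GC or GA box was 34.7% within 50 bases of the summit, 69.4% within 250 bases, 24.6% for GGGCGG alone, 61.2% for scores above the median and, chosen after seeing the data, 82.5% of the 40 peaks with a false discovery rate of at most 50%. A pseudocount of 5 left 4, 9 and 11 nearby genes changed at 12, 24 and 48 h, in place of 7, 15 and 20, while the shares over all genes were 0.383%, 1.41% and 3.12%. At 48 h the number was 13 of 59 with a highest RPKM of at least 10 (6.04% of all such genes), 31 of 152 with no limit on distance (7.82% of all genes) and, chosen after seeing the data, 12 of 48 for peaks scored above the median. The median log2 change at 48 h was 0.08 to 0.23 over its alternatives. Either clone alone was above WT Rep. 2 at 24 h for 11 of the 14 genes. No paired analysis was possible because no result comes from a test and each series has 1 library per time. Depth limits what a single peak can show, since the median buffer-only peak rests on 19 of 18641163 tags.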

Other observations

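The buffer-only peaks were spread over all autosomes. Chromosome 17 held 21 of them and chromosome 20 held 15, which is 25.9 and 23.8 for each 100000000 bases, whereas chromosome 6 held 7, or 4.09. Peaks in both lists numbered 23, 9 and 16 on chromosomes 17, 20 and 6. Of the peaks of the first list, 6 of 24 on chromosome 19 (25%) were buffer-only, against 12 of 17 on chromosome 13 (70.6%). On chromosome 17 the share was 47.7%, and 268 of 542 peaks of the whole first list were buffer-only. The values given for chromosomes other than 17 and 20 are likewise extremes among the autosomes, and no difference was tested. A further 3 lay on unplaced contigs, where no peak of both lists was called. In 5 places a pair of buffer-only peaks lay within 50000 bases of each other. Their nearest starts are those of CRABP2, ICE2, SHCBP1 and OTP, and 1 pair is on the contig gl000225. The ICE2 summits lie 113869 and 136329 bases from that start and 1 SHCBP1 summit 260879 bases, so neither pair counts as nearby.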
